A study of Mus musculus with 20 samples.

Results

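The dose slope within TCDD-exposed fetal hearts was measured over the 12 arrays whose titles name TCDD, out of 20 arrays in the series. The 8 control arrays, from dams given corn oil alone, were kept out of the slope and are set beside it only as a background. Whole hearts of fetal mice were profiled on the Affymetrix MG-U74Av2 array. The dams received 1.5, 3 or 6 µg/kg TCDD (4 arrays each) or the corn oil vehicle by oral gavage on gestation day 14.5, and hearts were collected on gestation day 17.5 (the treatment day of 1 array at 1.5 µg/kg is not used here, because its label is unclear). The labels name no strain or genotype, nor how many hearts or litters went onto each array. Every p below therefore measures only the spread between these arrays, which may in part be technical. The question was which transcripts moved steadily from 1.5 through 3 to 6 µg/kg, and which stayed level and then stepped at 6 µg/kg.

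TCDD is a persistent dioxin that binds the aryl hydrocarbon receptor (AhR). The receptor then pairs with Arnt, binds DNA at sites with the core GCGTG, and switches on the cytochrome P450 genes Cyp1a1 and Cyp1b1 together with Ahrr, a repressor that competes with the receptor. In the developing heart, excess AhR activation is known for reduced growth and impaired contraction.

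The sequences just upstream of the annotated starts of these 3 targets are shown because they carry the receptor's core motif, and the signals of all 3 were highest at 6 µg/kg. Each is 250 bases, written 5′ to 3′ on the gene's strand, from RefSeq on GRCm38.p6, with each match to GCGTG or to its reverse complement CACGC in capitals. Cyp1a1 is at chr9:57697363-57697612 on the plus strand, Cyp1b1 at chr17:79715062-79715311 on the minus strand and Ahrr at chr13:74292332-74292581 on the minus strand.
Cyp1a1: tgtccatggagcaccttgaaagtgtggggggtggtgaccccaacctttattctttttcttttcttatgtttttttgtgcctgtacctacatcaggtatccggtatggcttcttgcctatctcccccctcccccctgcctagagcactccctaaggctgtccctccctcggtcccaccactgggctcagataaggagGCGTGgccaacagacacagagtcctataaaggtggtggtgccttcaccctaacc
Cyp1b1: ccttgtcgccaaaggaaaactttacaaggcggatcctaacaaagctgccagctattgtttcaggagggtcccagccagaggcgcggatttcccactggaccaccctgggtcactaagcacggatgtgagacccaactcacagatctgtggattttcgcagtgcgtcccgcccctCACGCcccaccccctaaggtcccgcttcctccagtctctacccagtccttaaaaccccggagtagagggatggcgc
Ahrr: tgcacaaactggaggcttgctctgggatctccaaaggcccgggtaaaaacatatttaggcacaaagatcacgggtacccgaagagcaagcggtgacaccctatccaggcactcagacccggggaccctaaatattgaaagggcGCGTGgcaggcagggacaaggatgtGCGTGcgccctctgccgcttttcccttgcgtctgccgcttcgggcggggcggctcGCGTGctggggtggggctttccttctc
The motif occurred 1 time upstream of Cyp1a1, 1 time upstream of Cyp1b1 and 3 times upstream of Ahrr. It was found on either strand in 28.2% of 32851 RefSeq windows of this length. A match is a description of the letters, and the well-known AhR sites of Cyp1a1 lie further upstream than this window.

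Cyp1a1 rose with dose across the exposed hearts. Its MAS5 signals (the array software's linear intensity) were 94.1, 189, 206 and 413 at 1.5 µg/kg, then 271, 406, 219 and 209 at 3 µg/kg, then 335, 459, 692 and 552 at 6 µg/kg. The 8 controls lay between 15.5 and 70.9, below every exposed array, while neighbouring doses overlapped. A second Cyp1a1 probe set, too dim for the fit, had mean signals of 95.1 in controls and 82.7, 64.5 and 115 over rising dose, so it did not show this pattern. The slope was 0.26 ± 0.07 log2 units per µg/kg (SE, 12 arrays), with an adjusted p of 0.0468 by limma's moderated test with Benjamini-Hochberg adjustment. Signal at 6 µg/kg was 2.25 times that at 1.5 µg/kg on the log2(signal + 32) scale used throughout, which understates changes of dim probe sets.

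Cyp1b1, which metabolises oestrogens and retinoids beside aromatic hydrocarbons, rose as well. Its signals were 187, 294, 255 and 309 at 1.5 µg/kg, 228, 379, 261 and 233 at 3 µg/kg, and 359, 508, 386 and 444 at 6 µg/kg. The 2 lower doses overlapped and 1 array at 3 µg/kg reached into the range at 6 µg/kg; the controls (46.1 to 113) lay below all 12. The slope was 0.15 ± 0.04 per µg/kg (adjusted p = 0.0473, limma). Both calls sit close to the threshold of 0.05. They held without array 4 at 1.5 µg/kg (Cyp1a1 0.00958, Cyp1b1 0.0399) and without array 2 at 3 µg/kg (0.0430 and 0.0429). Leaving out any of the other 10 arrays gave adjusted p between 0.0505 and 0.140 for Cyp1a1 and between 0.0537 and 0.140 for Cyp1b1.

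Ahrr was too dim to enter the fit, which kept probe sets at or above the 40th percentile of their array in at least 4 of the 12 exposed arrays. It was tested alone by a two-sided exact permutation test over all 34650 assignments of the arrays to doses. Its signals were 92.5, 68.4, 85.6 and 50.9 at 1.5 µg/kg, 106, 75.5, 70.7 and 59.2 at 3 µg/kg, and 149, 166, 111 and 132 at 6 µg/kg. All 4 arrays at 6 µg/kg lay above the other 8 and above the controls (19.4 to 82.4), and the lower doses overlapped each other and the controls. The exact permutation p of its slope (0.16 per µg/kg) was 0.00234, or 0.00701 after Benjamini-Hochberg adjustment over the 3 dim genes tested this way. The other 2, Cyp1a2 (exact p = 0.273) and Ahr itself (exact p = 0.274), did not pass. Of 5 AhR target genes bright enough for the fit, all 5 had a slope above 0 and 2 passed. Over all 5921 genes, 2896 (48.9%) had a slope above 0 and 51 had a called rise. Nqo1, a detoxifying reductase (99.4, 104 and 114 as mean signals over rising dose, adjusted p = 0.806), and Tiparp, which dampens AhR signalling (221, 260 and 241, adjusted p = 0.837), did not pass.

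The shape of the rises of Cyp1a1 and Cyp1b1 could not be settled. The share of the 1.5-to-6 difference already reached at 3 µg/kg is 0.333 for a straight line in dose, 0.50 for a straight line in log2 dose and 0 for a step at 6 µg/kg. Cyp1a1 reached 0.31, close to the straight line, and Cyp1b1 0.09, close to a step. Neither departure from a line passed the test of curvature (unadjusted p = 0.917 and 0.342, limma), so with 4 arrays a dose a line and a step could not be told apart for either gene.

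**Figure D1:**
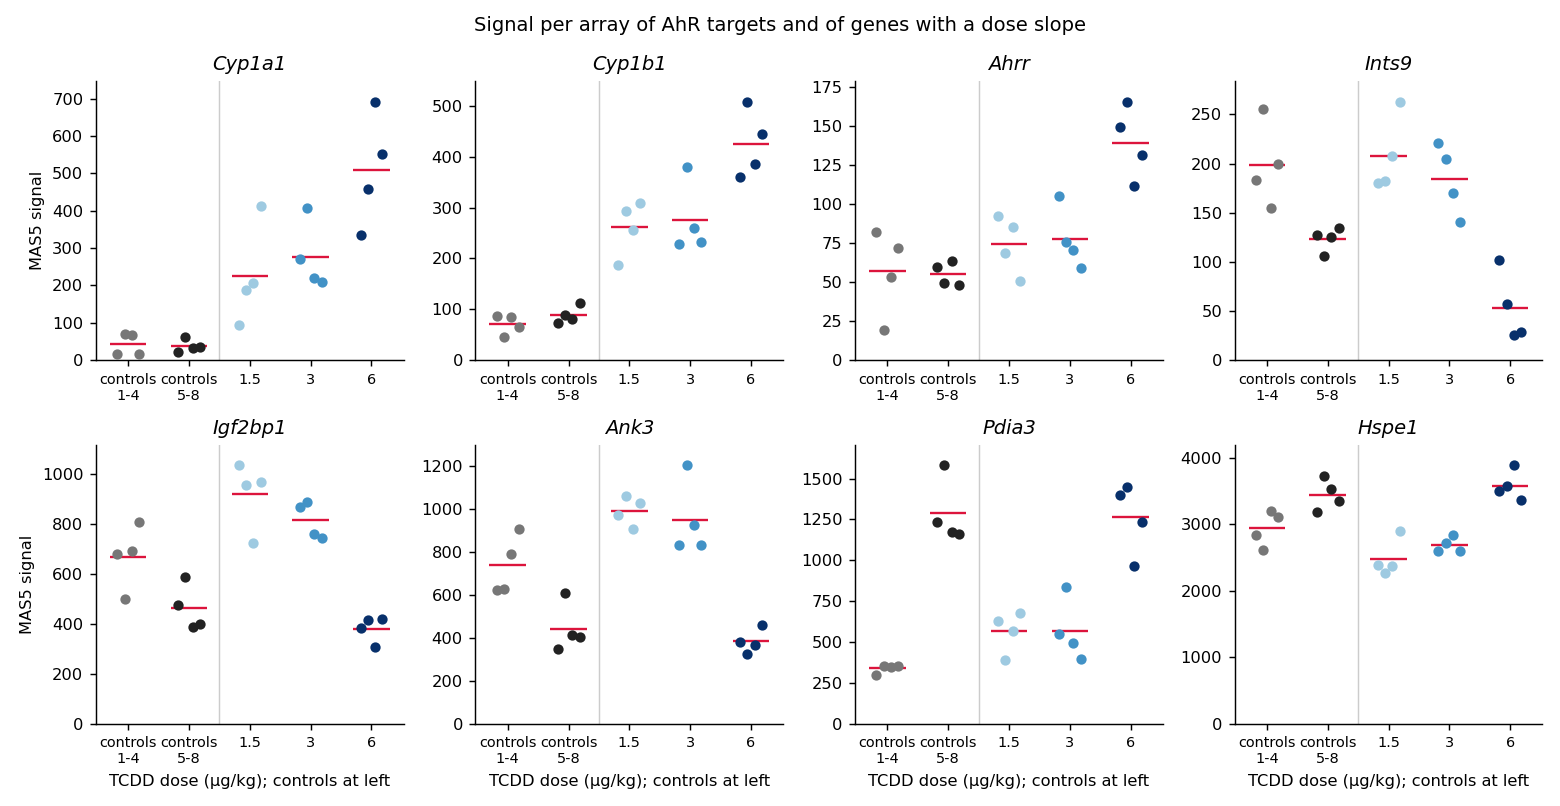
MAS5 signal (linear axis from 0) of 8 genes in each of the 20 arrays, with control arrays 1 to 4 and 5 to 8 at the left and the 3 TCDD doses in µg/kg at the right; points are arrays and red bars are means. Cyp1a1 and Cyp1b1 lie above all controls at every dose, whereas Igf2bp1, Ank3 and Pdia3 at 6 µg/kg lie at the level of controls 5 to 8.

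Across the array, 225 of 7810 probe sets (2.88%) had a slope that passed the threshold. Of these 73 rose (0.935%) and 152 fell (1.95%) with dose. An unadjusted p below 0.05 was reached by 1434 probe sets (18.4%). The count moved when single arrays were left out: it was 117 without array 1 and 134 without array 2 at 1.5 µg/kg, 141 without array 3 at 3 µg/kg, and 89, 84 and 101 without arrays 1, 2 and 3 at 6 µg/kg. Most changes were modest, with a median 1.53-fold difference between 1.5 and 6 µg/kg among called probe sets. The smallest was 1.19-fold and the largest 6.08-fold, in a rising probe set. An exact rank trend test over the same 12 arrays called 0 probe sets, and 1119 had an unadjusted exact p under 0.05. The smallest exact p this test can give is 5.77e-05. It was reached by 7 probe sets, and adjusted over all 7810 it became 0.0644. With 12 arrays the test could therefore hardly pass the threshold, and its 0 calls say little about the slopes.

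The exposed arrays were alike in overall signal and expressed cardiac genes, while lung epithelial markers varied between them, as described with the markers of other tissues. Correlations between arrays were 0.941 to 0.981 across probe sets, and array medians of the exposed hearts were 182 to 212. The cardiac myosin gene Myh6 had mean signals of 13298, 13331 and 14973 over rising dose, and Nppa, the atrial natriuretic peptide, 5483, 5677 and 5535. Array 4 at 6 µg/kg stood apart from the rest on the second principal component and had the highest β-actin 3′ to middle ratio of the exposed arrays (log2 1.02, others 0.35 to 0.59). Array 1 at 1.5 µg/kg had an Xist signal of 6.23 against 177 to 1553 in the other exposed arrays. Without both, 161 slopes passed, 105 of them among the 225. With 4 arrays a dose, their number sets the precision.

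More probe sets were called between 3 and 6 µg/kg than between 1.5 and 3 µg/kg. The second interval is 3 µg/kg wide and the first 1.5 µg/kg, so a straight line in dose also gives a larger second increment. The contrast of 6 with 3 µg/kg called 28 probe sets (0.359%), 8 higher and 20 lower, while the contrast of 3 with 1.5 µg/kg called 0 by limma, with 233 at an unadjusted p below 0.05. Among the 225, the median increments were 0.11 and then 0.48 log2 units for rising probe sets, and −0.15 and then −0.49 for falling ones. Over all probe sets they were 0.00 and −0.01. The 225 were chosen by their slope on the same arrays, so their increments describe them and test nothing. The first increment had the sign of the slope in 200 of 225, and in 4908 of all 7810 probe sets. The slope used the same arrays, so that count supports nothing. A step at 6 µg/kg, tested as the mean at 6 against the mean of both lower doses, called 167 probe sets (2.14%), 56 higher (0.717%) and 111 lower (1.42%). Of these 167, 148 also had a called slope, 19 had a called step alone, and 77 slopes had no called step. An F test of any difference between the doses called 62 (0.794%).

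Sorted by the share reached at 3 µg/kg, 122 of the 225 were graded (share from 0.2 to 0.8) and 100 were steps at 6 µg/kg (share below 0.2 in size); 3 were not monotone. Over all probe sets the same shapes took 29.1% and 18.6%. The slope test itself favours shares near that of a line, so these counts describe the called set and test nothing. A straight line lay closer to the 3 means in 136 and a step in 89. The test that could separate the 2 shapes, curvature, called 0 by limma, with 240 probe sets at an unadjusted p below 0.05, of which 15 were among the 225. The median share was 0.219, between a step (0) and a straight line in dose (0.333). The step count also moved with single arrays, from 64 without array 2 at 6 µg/kg to 297 without array 4 at 6 µg/kg; it was 65 and 74 without arrays 1 and 3 at 6 µg/kg, 90 without array 3 at 3 µg/kg and 108 without array 1 at 1.5 µg/kg. The 6-against-3 count was 116 without array 4 at 6 µg/kg. It was 13 and 12 without arrays 1 and 2 at that dose, and 16, 5 and 8 without arrays 1, 2 and 3 at 3 µg/kg.

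**Figure D2:**
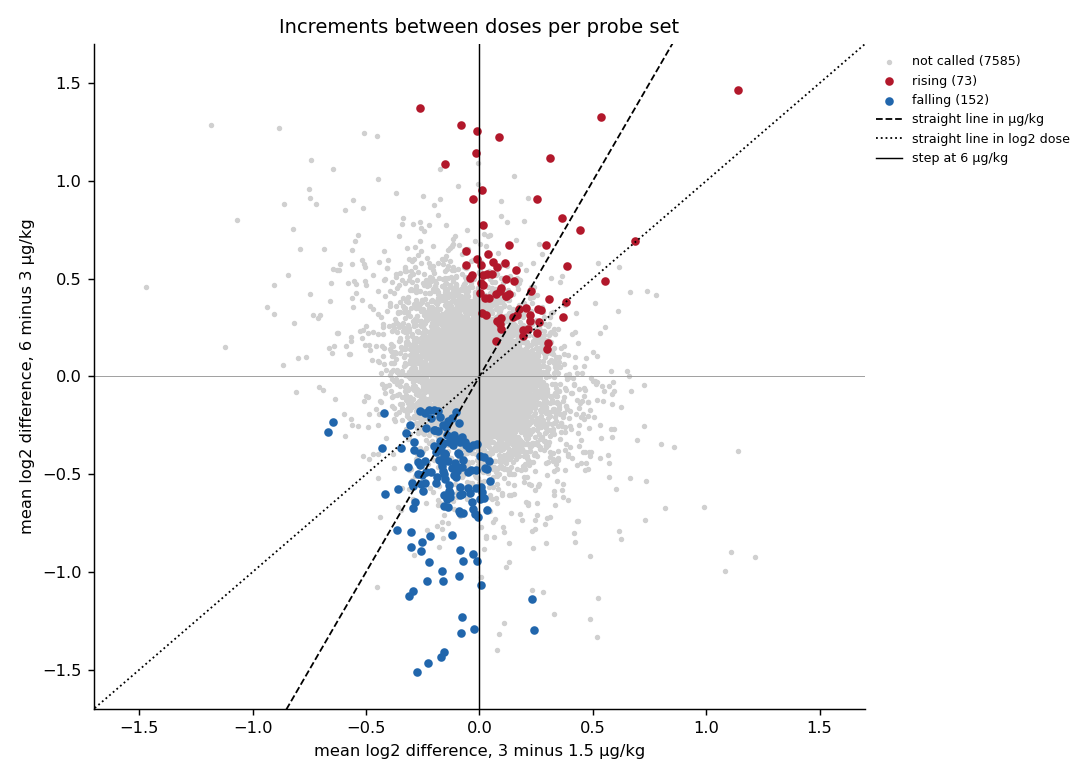
Mean log2 difference of 3 minus 1.5 µg/kg (horizontal) and of 6 minus 3 µg/kg (vertical) for 7810 probe sets, with called slopes coloured. Steps lie on the vertical line and steady changes on the dashed line; the 73 rising and 152 falling probe sets spread between and around the 2, with median vertical increments of 0.48 and −0.49.

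The steepest falls included Ago2, Irs2, Wnk1, Ints9, Pdpk1, Xrn1, Ank3 and Igf2bp1. Ago2, the slicing Argonaute of RNA interference, had the steepest fall of any named gene. Its signals were 2051, 2235, 1994 and 1669 at 1.5 µg/kg, 1885, 1846, 1435 and 1407 at 3 µg/kg, and 855, 680, 667 and 227 at 6 µg/kg. The arrays at 6 µg/kg were all below the others, and the 2 lower doses overlapped. The slope was −0.41 ± 0.06 per µg/kg (adjusted p = 0.00472, limma), a 3.45-fold difference between 1.5 and 6 µg/kg with a share of 0.15 at 3 µg/kg.

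Igf2bp1 and Ank3 had the smallest adjusted p of the named genes (0.000424 each, limma). Igf2bp1, a fetal RNA-binding protein that guards mRNAs of growth factors, gave 1035, 956, 722 and 968 at 1.5 µg/kg, 869, 887, 759 and 745 at 3 µg/kg, and 383, 414, 305 and 418 at 6 µg/kg, a slope of −0.28 ± 0.03. Ank3, the ankyrin that anchors membrane channels, gave 973, 1061, 907 and 1028, then 833, 1204, 925 and 831, then 379, 327, 367 and 460, a slope of −0.31 ± 0.04. In both genes the 2 lower doses overlapped and 6 µg/kg lay far below, with shares of 0.13 and 0.06. The other kept Ank3 probe set had a slope of 0.04 that did not pass, so the fall was seen at 1 of 2 probe sets.

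Irs2, a docking protein of the insulin receptor, and Pdpk1, the kinase that activates AKT, also fell. Irs2 fell by 3.24-fold between 1.5 and 6 µg/kg (slope −0.39 ± 0.07, adjusted p = 0.0120, limma), from 217 to 397 at 1.5 µg/kg to 29.4 to 199.5 at 6 µg/kg. Pdpk1 fell by 2.62-fold (slope −0.33 ± 0.05, adjusted p = 0.00472, limma), from 333 to 505 to 119 to 167; the other kept Pdpk1 probe set had a slope of 0.00 (adjusted p = 0.960). In both genes the arrays at 6 µg/kg lay below all arrays at the lower doses. Wnk1, a kinase that governs ion cotransporters, fell by 3.04-fold (slope −0.37 ± 0.06, adjusted p = 0.00472, limma); its 2 other probe sets had slopes of −0.18 and −0.06 that did not pass.

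Ints9, a subunit of the Integrator complex that trims small nuclear RNAs, gave 180, 182, 207 and 263 at 1.5 µg/kg, 220, 205, 170 and 141 at 3 µg/kg, and 102, 57.4, 25.3 and 28.9 at 6 µg/kg. It was the 1 falling gene among the 225 whose difference at 6 µg/kg from the 8 controls (106 to 256) also passed (adjusted p = 0.0163, limma). Its slope was −0.37 ± 0.06 (adjusted p = 0.00529). The 5′ exonuclease Xrn1 (−0.33), the nucleoside transporter Slc29a2 (−0.32) and the initiation factor Eif5b (−0.29, with −0.02 at its other probe set) fell too. So did Pmm1 (−0.31), Nrk (−0.27), Rufy3 (−0.27), Sirpa (−0.26) and Mark2 (−0.26). Further kept probe sets of Nrk (−0.08) and Sirpa (−0.06) did not pass. For Mark2 a further probe set with −0.18 passed and another with −0.12 did not. Sirpa, the receptor for CD47, was not monotone: its mean was 0.24 log2 units higher at 3 than at 1.5 µg/kg before it fell. The calls of Xrn1 and Sirpa ended in 6 and 4 of the 12 fits that left out an array (highest adjusted p 0.0962 and 0.0865); those were the fits without arrays 1 and 3 at 1.5, 3 at 3, and 1, 3 and 4 at 6 µg/kg for Xrn1, and array 1 at 1.5 and 2, 3 and 4 at 6 µg/kg for Sirpa.

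The rises included Pdia3, Adam28, Cdh13, Hspe1, Pabpc1, Klf13 and Itgav. Pdia3, a disulphide isomerase of the endoplasmic reticulum, was sorted as a step by its share: 625, 390, 569 and 680 at 1.5 µg/kg, 551, 837, 491 and 397 at 3 µg/kg, and 1397, 1451, 963 and 1237 at 6 µg/kg. No array at 6 µg/kg overlapped the other 8, and the share at 3 µg/kg was −0.01. The slope was 0.27 ± 0.05 per µg/kg (adjusted p = 0.0105, limma) and the step 1.13 log2 units (adjusted p = 0.00602). Its departure from a line did not pass after adjustment (curvature unadjusted p = 0.0487, adjusted p = 0.9999, limma). Adam28, a membrane protease, and Cdh13, a cadherin of vessels and heart, also passed the step test, with shares of −0.24 and −0.16. By its share Adam28 was sorted as not monotone.

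Hspe1, the mitochondrial co-chaperonin, rose with a share just inside the graded range. Its signals were 2395, 2264, 2372 and 2898 at 1.5 µg/kg, 2598, 2718, 2833 and 2598 at 3 µg/kg, and 3506, 3575, 3889 and 3360 at 6 µg/kg. The arrays at 6 µg/kg were all higher than the rest; 1 array at 1.5 µg/kg exceeded all at 3 µg/kg. The slope was 0.12 ± 0.02 (adjusted p = 0.00609, limma) with a share of 0.22. Its step was called as well (adjusted p = 0.00750, limma) and its curvature was not (unadjusted p = 0.481, limma). A line and a step could therefore not be told apart for Hspe1. Pabpc1, the cytoplasmic poly(A)-binding protein, rose by 1.34-fold between 1.5 and 6 µg/kg, with a difference of 0.00 log2 units between the lower doses and a step of 0.43 (adjusted p = 0.00602, limma). Klf13, a zinc finger regulator of heart development, rose by a step of 0.54 (adjusted p = 0.00750, limma). The other kept Klf13 probe set had a slope of 0.04 that did not pass (adjusted p = 0.508, limma).

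The steepest named rise was Itgav, the αV integrin subunit, with 49.8, 42.1, 43.3 and 132 at 1.5 µg/kg, 167, 164, 18.3 and 138 at 3 µg/kg, and 323, 233, 287 and 408 at 6 µg/kg. Its slope was 0.42 ± 0.08 (adjusted p = 0.0143, limma). Arrays at 6 µg/kg lay above the rest, but the controls (79.0 to 329) spanned most of the exposed range, and a second kept Itgav probe set had a slope of −0.03 (adjusted p = 0.523). Rbck1, part of the linear ubiquitin ligase, rose with 0.33 ± 0.07 (adjusted p = 0.0180) at 1 probe set and had −0.01 at the other. Cd151, a tetraspanin that binds integrins, rose with 0.26 at 1 probe set and had 0.00 and −0.02 at 2 others. The remaining leading rises were Pam (0.31), Lgals9 (0.30), Slc6a2 (0.30), Fam83g (0.26), Syne4 (0.23), Atp5l (0.22), Ptgds (0.22) and Iglc1 (0.21). They include a peptide-amidating enzyme (Pam), the noradrenaline transporter (Slc6a2) and a prostaglandin D synthase (Ptgds). Further kept probe sets of Lgals9 (0.04), Atp5l (0.01) and Ptgds (0.10 and 0.07) did not pass.

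Some of these calls ended when 1 array was left out, for several genes whichever of many arrays it was. Fits that left out 1 of the 12 arrays ended the call of Cd151 in 10 (highest adjusted p 0.121, limma; it held without array 4 at 1.5 or array 4 at 6 µg/kg) and of Adam28 in 7 (0.118; arrays 1 and 3 at 1.5, 3 and 4 at 3, and 1, 3 and 4 at 6 µg/kg). Syne4 lost it in 6 (0.104; arrays 1 and 3 at 1.5 and all 4 at 6 µg/kg) and Iglc1 in 6 (0.105; arrays 1 to 3 at 1.5 and 1 to 3 at 6 µg/kg). Slc6a2 lost it in 5 (0.0816; arrays 1 and 2 at 1.5 and 1 to 3 at 6 µg/kg) and Cdh13 in 4 (0.0885; array 2 at 1.5 and 1 to 3 at 6 µg/kg). Klf13 lost it without arrays 1, 2 or 3 at 6 µg/kg (0.0674), Lgals9 without arrays 1 or 2 (0.0732), Rbck1 (0.0668) and Atp5l (0.0601) without array 2, and Pam without array 3 at that dose (0.0674). Hspe1, Pdia3, Pabpc1, Itgav, Ptgds and Fam83g kept their calls in all 12 fits, as did Ago2, Igf2bp1, Ank3, Irs2, Pdpk1, Wnk1 and Ints9.

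Other settings ended some of these. With each array's 3′ to 5′ ratio (the mean of β-actin and Gapdh) added to the fit, 158 slopes passed, 85 of them among the 225. Of 50 named calls 23 ended, those of Pdia3, Itgav, Fam83g, Cyp1a1 and Cyp1b1 among them. That ratio itself moved with dose, though neighbouring doses overlapped. Its log2 group means over rising dose were 0.25, 0.37 and 0.38 for β-actin and −0.25, −0.22 and −0.16 for Gapdh. The part of RNA quality in the slopes was not tested further. With the difference between 2 sets of controls as a covariate, described further on, 47 of the 50 ended, and of the 13 genes that kept their calls in all 12 fits above Ago2 alone passed. That covariate moved closely with dose (Pearson r = 0.87 over the 12 exposed arrays), so calls can end under it through lost precision alone. With all 20 arrays in the fit 23 of the 50 ended, Pdia3 and Pabpc1 among them, and without both arrays that stand apart 24 ended, Itgav among them. The calls of Cyp1a1 and Cyp1b1 also ended in both of these fits, and without a filter, without the intensity trend and in log2 dose. Array weights ended that of Cyp1a1 and the lung epithelial covariate that of Cyp1b1. Each of the 2 genes lost its call under 8 of 17 alternative settings, apart from the fits that left out 1 array.

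How far a gene could be checked on the same arrays was limited. Of the called genes, 77 had further kept probe sets, 105 in all; 76 of these moved in the same direction and 6 were called themselves. A letter before the suffix marks probe sets that did not meet Affymetrix's usual selection rules or match several transcripts. Such names made up 37.0% of rising, 13.8% of falling and 18.6% of all kept probe sets.

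Strictly ordered genes, in which no array of a dose overlapped the next, were few: 7 probe sets (0.0896%), 6 of them with a called slope. Cst3, the protease inhibitor cystatin C, gave 5029, 5931, 5714 and 5840, then 6283, 6341, 6181 and 6857, then 7246, 7614, 7294 and 7451, a rise of 0.09 ± 0.02 per µg/kg (adjusted p = 0.0142, limma) with a share of 0.48. Tomm34, which helps mitochondrial import, was the other that rose (0.10, adjusted p = 0.0473, limma). It spanned 549 to 781, 799 to 915 and 923 to 1056 over rising dose.

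Among the ordered falls, Rab11fip5, an effector of recycling endosomes, gave 1270, 1156, 1077 and 1130, then 891, 1035, 1012 and 975, then 857, 876, 885 and 644 (slope −0.11 ± 0.02, adjusted p = 0.0255, limma). Its share of 0.47 was close to a line in log2 dose. Aars, the alanyl-tRNA synthetase, fell from 561 to 616 through 501 to 548 to 424 to 475 (slope −0.08, adjusted p = 0.0414). The ubiquitin ligase Cbl (−0.26, adjusted p = 0.0455) and the kinase Csnk1d (−0.06, adjusted p = 0.0489) fell in order too; 1 of the 3 other Csnk1d probe sets had a slope of 0.05. Mapk8, the stress kinase JNK1, had a slope of −0.06 that missed the threshold (adjusted p = 0.0961). In each of these 7 genes the controls overlapped the exposed arrays. Cst3 kept its call without any 1 array; Rab11fip5 lost it without arrays 1 or 2 at 1.5 or array 1 at 6 µg/kg (highest adjusted p 0.0628, limma). The calls of Cbl, Aars, Csnk1d and Tomm34 ended in 9, 10, 11 and 12 of the 12 fits that left out an array (highest 0.0879, 0.110, 0.138 and 0.131). Those that held were of Cbl without array 4 at 1.5 or arrays 1 or 4 at 6, of Aars without array 1 at 3 or array 4 at 6, and of Csnk1d without array 4 at 6 µg/kg.

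Leaders of the first increment stood alone, since none passed. Sh3bgr, a muscle protein, had 1215 to 1922 at 1.5 µg/kg, 816 to 990 at 3 µg/kg and 577 to 1061 at 6 µg/kg, a difference of −0.81 log2 units between the lower doses (unadjusted p = 0.000287, limma). Mtf2, a Polycomb-like protein, was 494 to 833, 335 to 441 and 228 to 363; its first increment (−0.67) exceeded the second (−0.28) and its slope was called (adjusted p = 0.0202, limma) at 1 of 2 probe sets, the other having a slope of 0.00 (adjusted p = 0.988). Anp32a, a nuclear phosphoprotein, had mean signals of 323, 601 and 374 over rising dose and a slope of 0.00. For Sh3bgr and Mtf2 the 1.5 µg/kg arrays were the ones that stood off from both other doses.

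Most slopes crossed the level of the controls. The control mean fell between the means at 1.5 and 6 µg/kg in 213 of the 225 called probe sets, against 44.8% of all probe sets. The 225 were chosen for a wide gap between these doses, with a median of 1.53-fold against 1.11-fold over all probe sets. A wider gap holds the control mean more readily, so the 44.8% is not a like background and the count tests nothing. For rising probe sets the median difference from controls was −0.27, −0.15 and 0.33 log2 units at 1.5, 3 and 6 µg/kg. For falling ones it was 0.37, 0.23 and −0.29. Because controls did not enter the slope, these are values beside the slope and not tests of it; the 3 differences share the same controls.

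Few slopes ended outside the range of the controls. All 4 arrays at 6 µg/kg were above or below all 8 controls for 10 of the 225 (0.858% of all probe sets): Cyp1a1, Cyp1b1, Rbck1, Pam, Psmd9 and Ndel1 above, and Ints9, Rcc2, Klf5 and Usp22 below. Among them, Psmd9, Ndel1, Rcc2, Klf5 and Usp22 were named after their values were seen. All 12 exposed arrays lay on one side of the controls for 2 of the 225, Cyp1a1 and Cyp1b1 (0.0384% of all probe sets). The comparison of 6 µg/kg with controls called 3 of the 225, namely Cyp1a1, Cyp1b1 and Ints9 (6 called in all, 0.0768%). In contrast, all 4 arrays at 6 µg/kg lay outside the 8 other exposed arrays in 145 of the 225 (3.51% of all probe sets); the slope had used those arrays, so that count supports nothing.

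The control arrays carry the numbers 1 to 8, and the genes with a dose slope also differed between controls 1 to 4 and controls 5 to 8. Averaged over the 73 rising probe sets and centred on the exposed arrays, the log2 level was −0.37 to −0.09 in controls 1 to 4 and 0.16 to 0.22 in controls 5 to 8. It was −0.34 to −0.21 at 1.5 µg/kg, −0.20 to −0.03 at 3 µg/kg and 0.38 to 0.47 at 6 µg/kg. Controls 5 to 8 thus lay between 3 and 6 µg/kg, and controls 1 to 4 beside the lower doses. Over the 152 falling probe sets the 2 sets of controls were at 0.02 to 0.11 and −0.37 to −0.21, beside 0.21 to 0.38, 0.08 to 0.20 and −0.43 to −0.39 over rising dose.

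Gene by gene, controls 5 to 8 were above controls 1 to 4 in 68 of 73 rising probe sets and below in 138 of 152 falling ones, against 49.8% above over all probe sets. The median difference was 0.31 and −0.33 log2 units, with 0.00 over all probe sets. These 8 arrays share none with the slope. A limma comparison of the 2 sets of controls called 22 probe sets (0.282%), of which 12 were among the 225. At an unadjusted p below 0.05 (14.2% of all), 114 of the 225 differed in the direction of their slope and 0 against it. Pdia3 was the clearest: controls 1 to 4 had 301 to 351 and controls 5 to 8 had 1160 to 1581, which held the whole range from 1.5 to 6 µg/kg and more. In Ago2, controls 1 to 4 had 764 to 2494 and controls 5 to 8 had 296 to 756, without overlap (difference −1.36 log2 units, unadjusted p = 0.00285, adjusted p = 0.131, limma). Cyp1a1 and Cyp1b1 differed by −0.05 and 0.25 log2 units between the 2 sets, with every control below every exposed array.

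The labels give no batch for any array, and what the control numbers stand for is not stated in the sources used here. With each exposed array's score on the difference between the 2 sets of controls as a covariate, 23 slopes passed, 5 of them among the 225. That score was −0.20 to −0.09 at 1.5 µg/kg, −0.17 to −0.08 at 3 µg/kg and 0.03 to 0.41 at 6 µg/kg, so it moved with dose (Pearson r = 0.87 over the 12 arrays). It was computed from the kept probe sets, those tested included. A covariate this close to dose leaves the fit little precision for a slope, so an ended call need not mean a smaller slope. With that covariate the slope of Cyp1a1 was 0.31 (adjusted p = 0.336, limma) and that of Cyp1b1 0.12 (adjusted p = 0.559), against 0.26 and 0.15 without it. The part of the difference between the control sets in the slopes was not tested further.

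**Figure D3:**
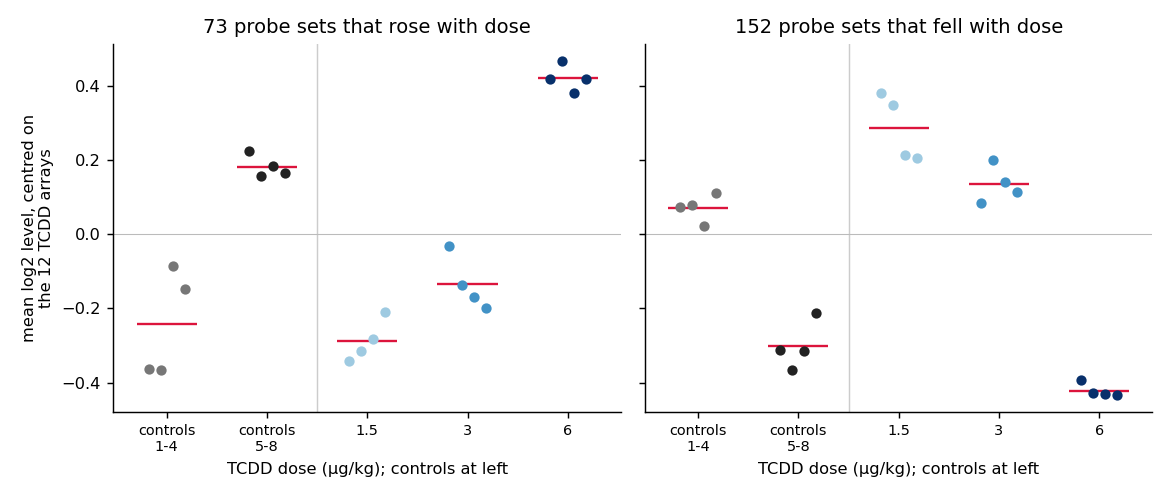
Mean log2 level over the 73 rising (left) and 152 falling (right) probe sets in each of the 20 arrays, centred on the 12 TCDD arrays; points are arrays, red bars group means. The 12 exposed arrays were used to choose the probe sets, whereas the controls were not: controls 5 to 8 lie at 0.16 to 0.22 and −0.37 to −0.21, towards the 6 µg/kg arrays.

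Among heart and metabolic gene groups, few members passed. Each gene was counted once, by its brightest probe set, and over all 5921 genes 2896 slopes were above 0 and 3025 below, with 51 and 109 called and a median of 0.00 per µg/kg. In bulk hearts, fewer cells of a type and less RNA per cell cannot be told apart. Of 39 structural matrix genes, 26 had a slope below 0 and 4 fell: Tnxb, a tenascin (slope −0.23, adjusted p = 0.00687, limma), Col6a2 (−0.13, 0.0202), Col5a2 (−0.09, 0.0262) and Hspg2, the basement membrane proteoglycan perlecan (−0.17, 0.0265). Tnxb gave 1008 to 1432 at 1.5 µg/kg, 906 to 1487 at 3 µg/kg and 467 to 675 at 6 µg/kg, without overlap at the highest dose. Its other kept probe set had a slope of −0.10 that did not pass (adjusted p = 0.227, limma). The list's median slope was −0.02. Hspg2 and Col5a2 each lost their call in 5 of 12 fits that left out an array (highest adjusted p 0.0816 and 0.0839). Those arrays were 1 and 2 at 1.5 µg/kg and 1, 2 and 4 at 6 µg/kg for Hspg2, and 2 at 1.5 µg/kg and all 4 at 6 µg/kg for Col5a2. Col6a2 lost it without arrays 1, 2 or 3 at 6 µg/kg (highest 0.0527).

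Oxidative phosphorylation genes leaned the other way. Of 33, 29 had a slope above 0 and 2 rose: Ndufv2 of complex I (0.06 per µg/kg, adjusted p = 0.0469, limma) and the muscle isoform Cox7a1 of complex IV (0.09, 0.0497). Their median slope was 0.05. Ndufv2 spanned 6641 to 6959, 6832 to 7338 and 7790 to 8263 over rising dose, so that 6 µg/kg did not overlap the rest. The Ndufv2 call ended without any 1 of the 12 arrays (highest adjusted p 0.121). The Cox7a1 call ended in 10 of the 12 such fits (highest 0.106) and held only without array 4 at 1.5 or array 2 at 3 µg/kg.

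Fatty acid oxidation genes had 14 of 20 slopes above 0, but the 1 that passed fell: Cpt1a, the gatekeeper of mitochondrial fatty acid import, went from 1163 to 1448 through 1059 to 1197 to 972 to 1030 (slope −0.08, adjusted p = 0.0455, limma). It lost its call in 9 of 12 fits that left out an array (highest 0.104) and held without array 4 at 1.5, array 1 at 3 or array 4 at 6 µg/kg. Ribosomal protein genes had 12 of 13 slopes above 0 and interferon and MHC class I genes 9 of 10, with 0 called in either list by limma and 2 and 4 at an unadjusted p below 0.05. Chaperone genes had 13 of 23 above 0, with Hspe1 and Pdia3 called.

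Of 14 cardiac transcription factors 11 had a slope below 0 and 1 fell. This was Mef2a, a driver of muscle gene programmes, with 3318 to 5186 at 1.5 µg/kg, 2640 to 3948 at 3 µg/kg and 1851 to 2361 at 6 µg/kg (slope −0.19 ± 0.03, adjusted p = 0.00809, limma). The arrays at 6 µg/kg lay below all others, and so did controls 5 to 8 (1993 to 2377) against controls 1 to 4 (2950 to 3710). Contractile genes (19 of 24 above 0), TGF-beta and IGF genes (14 of 17 below) and smooth muscle markers (7 of 8 below) had 0 calls by limma, with 4, 7 and 2 genes at an unadjusted p below 0.05.

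Markers of other tissues were checked because a dissected heart can carry neighbours. All 4 measured lung epithelial markers of 12 listed had slopes below 0, none called, with a median difference of −0.55 log2 units from 1.5 to 6 µg/kg. Their mean level was −0.83 to 0.81 at 1.5 µg/kg, −1.65 to 1.33 at 3 µg/kg and −1.39 to 1.41 at 6 µg/kg. With this level as a covariate 128 slopes passed. Macrophage (7 of 12 above 0), mast cell (4 of 5 below), erythroid (5 of 7 below) and endothelial markers (12 of 18 below) had no called slope; their part in the results was not tested. The genes called against controls at 6 µg/kg but without a called slope were the neutrophil-rich Plac8 (adjusted p of the slope 0.136, limma), the MHC class II chaperone Cd74 (0.488) and the mast cell chymase Cma1 (0.552).

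**Figure D4:**
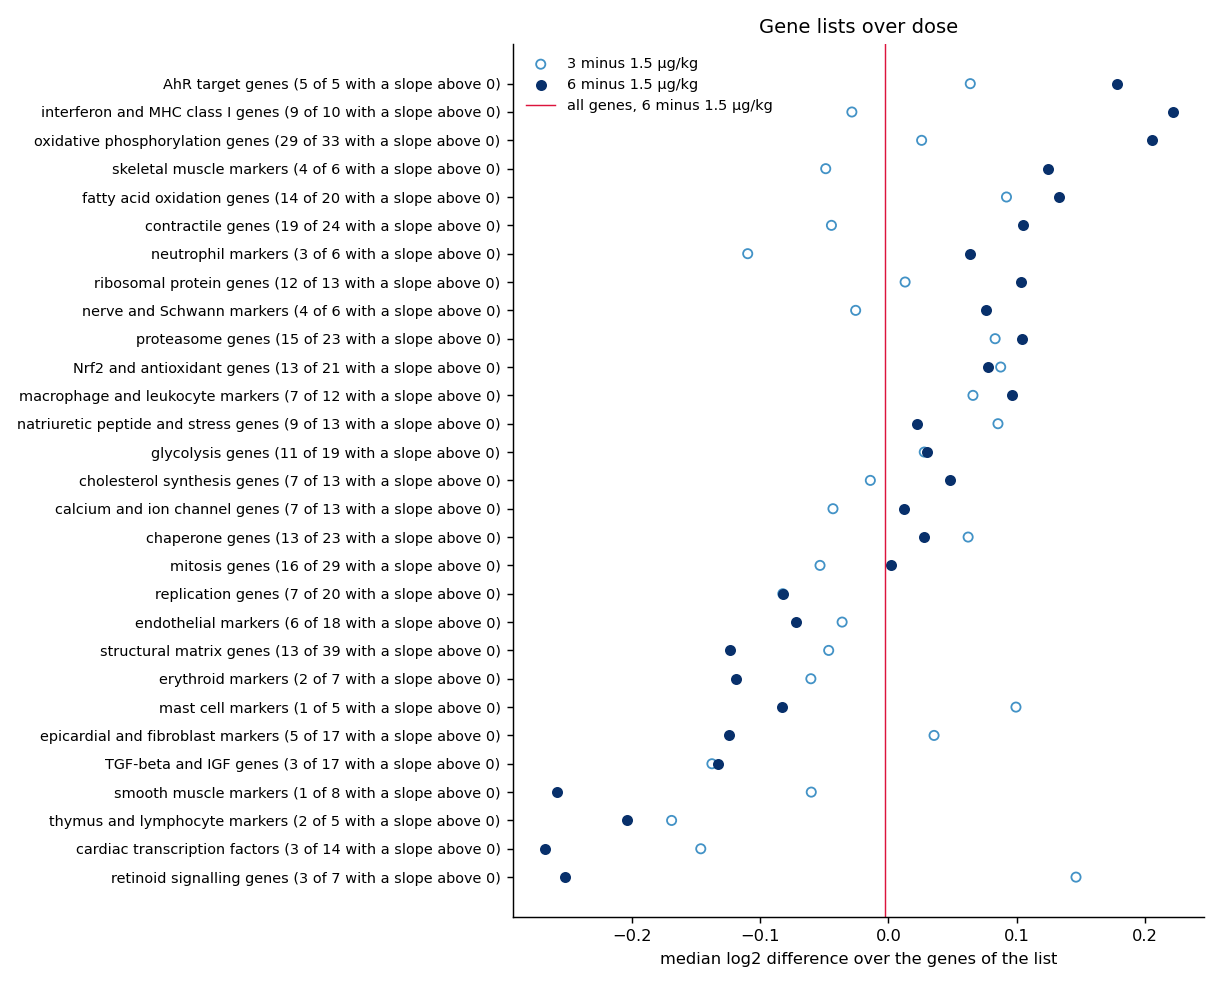
Median log2 difference over the genes of each list with 5 or more measured genes, for 3 minus 1.5 µg/kg (open) and 6 minus 1.5 µg/kg (filled); the red line is the median over all genes, 0.00. Oxidative phosphorylation genes reach 0.21 at 6 µg/kg from 0.03 at 3 µg/kg, and structural matrix genes −0.12 from −0.05.

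A property the slope did not use was the length of the gene. Rising probe sets belonged to short genes, with a median genomic span of 10.3 kb (quartiles 4.23 and 23.0 kb, 65 probe sets with a RefSeq location), and falling ones to long genes, with 35.2 kb (15.8 and 90.5 kb, 143 probe sets). All kept probe sets had a median of 21.3 kb (9.04 and 47.6 kb, 7059 probe sets). Hspe1 and Ank3 are examples at either end. The core AhR motif, searched as above, was found upstream of 27 of 56 rising genes (48.2%) and 73 of 115 falling genes (63.5%) with a window, counting any of a gene's windows, and in 51.5% of the 4787 kept genes with one. Genes are not independent of one another, so these are descriptions without a test.

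**Figure D5:**
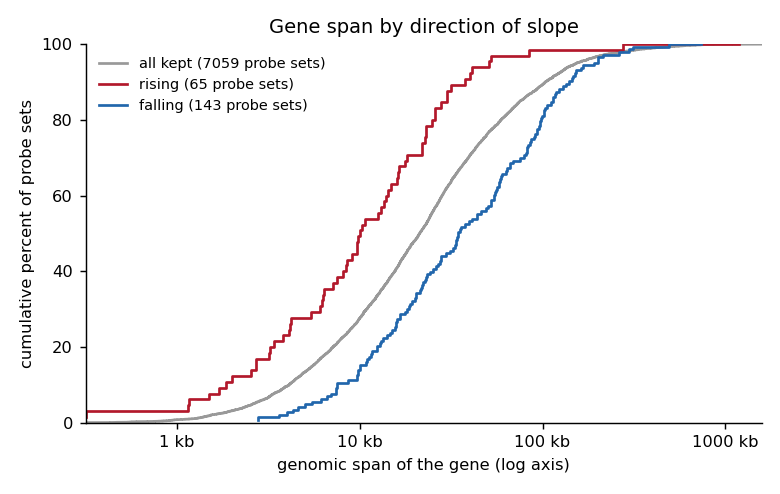
Cumulative percent of probe sets by genomic span of their gene (log axis) for all kept, rising and falling probe sets. The rising curve (median 10.3 kb) lies left of all probe sets (21.3 kb) and the falling curve (35.2 kb) right of it.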

How the data were processed

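Values are MAS5 signals as deposited by the authors, in linear intensity units, in 1 table per array; the MAS5 version is not given in the sources used here. The deposited 2% trimmed means of 500.28 to 500.34 show that the authors had scaled the arrays alike. Of 12488 probe sets, 66 AFFX controls were left out. After rescaling each array to a trimmed mean of 500, log2(signal + 32) was taken. A probe set entered when at least 4 of the 12 exposed arrays reached their own 40th percentile, which left 7810 (5921 genes); 7065 had 1 symbol in the platform annotation, 253 several and 492 none.

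Linear models used limma 3.58.1 under R 4.3.3 (lmFit and eBayes with an intensity trend) on the 12 exposed arrays, as intercept plus dose in µg/kg, or as 3 dose means for the step, curvature, increments and F test. Tests were two-sided, adjusted by Benjamini-Hochberg over the 7810 with a threshold of 0.05. Comparisons with controls used all 20 arrays. The F test of any difference called 62 (0.794%). Array levels of a gene set are means of centred log2 values. Figures were drawn with matplotlib 3.10.9 in Python 3.11. The scripts were tested on simulated data.

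Named genes were up to 15 per direction by slope size among called genes, 5 per direction for the step and curvature, 3 for each increment, fixed AhR, immune and cardiac genes, and up to 4 per list; the strictly ordered genes were added after their values were seen. The members and the 34 lists were chosen with earlier results of these data known, and examples are printed. Arrays were not paired by replicate number in the main fit, and the labels do not say what these numbers stand for. Deviations of same-numbered arrays correlated between −0.22 and 0.23, over 0.1 in 5 of 12 pairs. Differently numbered arrays were not compared, so these values cannot settle whether same-numbered arrays share a batch or litter. Alternatives were other scalings, pseudocounts, filters, covariates, weights, log2 dose, a rank test and leaving out arrays; leaving out both arrays that stand apart and the control covariate were chosen after seeing the data.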

Additional observations from a re-analysis of the deposited data

Results flagged for a closer look

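Of 312 groups of 4 or 8 arrays checked, 18 (5.77%) held an array far from the others by Dixon's criterion, where chance gives about 5%. At 6 µg/kg, array 3 was high for Ptgds (2554) and low for Mark2 (106.7). Array 4 at 6 µg/kg was low for Mtf2 (228), Cbl (16.09) and Rab11fip5 (643.8), and array 2 was high for S100a8 (460.8). The falling genes' mean level in array 1 at 6 µg/kg was −0.3934, above the other 3. At 3 µg/kg, array 4 was low for Eif5b (100.9) and high for Adam28 (186), array 3 was low for Itgav (18.28), array 2 was low for Arnt (224.6) and array 1 was high for Romo1 (2034). At 1.5 µg/kg, array 2 was high for Eif5b (284.8) and for Romo1 (1705), array 4 was high for Itgav (132.3), and array 3 was low for Pam (55.41). Among controls, array 7 was low for Pmm1 (44.92) and array 2 for Ahrr (19.37).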

How the results depend on the processing

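Counts of called slopes (225 as reported) were 142 without a filter, 91 with all 20 arrays in the fit, 128 with the lung epithelial covariate, 134 without the intensity trend, 383 with array weights, 109 in log2 dose, 23 with the control covariate and 0 by the exact rank trend. The control covariate moved closely with dose, and the smallest possible p of the rank trend limits what it can call. For the step (167) the counts that moved were 97 with all 20 arrays, 108 with the lung covariate and 478 with array weights. For any difference (62) they were 26 without a filter, 3 with all 20 arrays, 33 with the 3′ to 5′ covariate, 35 with the lung covariate, 29 without the trend and 202 with array weights. For 6 against 3 µg/kg (28) they were 3 with all 20 arrays, 17 without the trend, 242 with array weights, 99 without both arrays that stand apart and 64 with the control covariate. The 3-against-1.5 count was 1 with the control covariate. Leaving out 1 array gave 84 to 235 slopes, 64 to 297 steps, 13 to 130 of any difference and 5 to 116 for 6 against 3 µg/kg; curvature and 3 against 1.5 µg/kg kept 0. With the replicate number as a block, 201 slopes, 170 steps and 28 of 6 against 3 µg/kg passed. Whether these numbers pair arrays is not known. Pseudocounts of 1 and 100, unscaled signals, quantile normalization, a stricter filter, one over all 20 arrays and robust variance gave 209 to 225 slopes. The Cd151 slope became −0.02 (−0.02285) with the control covariate. The cause of these shifts was not tested. Signals near background, such as those of Ahrr, limit what dim genes can show.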
